A study of Mus musculus with 11 samples.

Results

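Type I interferon-stimulated genes were followed in regulatory T cells (Tregs) that carry a transgenic T cell receptor and were recovered from visceral adipose tissue (VAT) or from pooled spleen and lymph nodes (Spl/LN) of mice given the peptide Fat1562 or not. The set was a list of 57 gene symbols, without guanylate-binding proteins (GBPs), immunity-related GTPases (IRGs) or MHC class I genes. The 57 rows were read from a table of 52997 genes, and a gene was kept if its mean in any group exceeded 10 counts after scaling to the mean library total. All 57 listed genes passed this limit, as did 12932 genes in all. The lowest was Ifi44, with a highest group mean of 25.8 and 3 of 4 groups above the limit, and the other 56 genes exceeded it in each of the 4 groups.

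The Tregs were from vTreg53 mice, which carry the rearranged T cell receptor genes of 1 expanded VAT Treg clone. They were taken from spleen and lymph nodes and transferred into CD45.1 B6 recipients, then sorted back as clonotype+ Tregs that bore CD45.2, a marker that the CD45.1 cells of the host lack. The labels give male C57BL/6 Tregs of 15 weeks. Fat1562, a peptide recognised by this receptor, was given in complete Freund's adjuvant 6 weeks after transfer and again in incomplete adjuvant 1 week later. The labels call the comparison mice PBS and unimmunized, whereas the methods of the study describe adjuvant without peptide. These mice are called control here. If the labels hold, Fat1562 mice had peptide and adjuvant and control mice had neither, so peptide and adjuvant cannot be told apart. An effect of Fat1562 below means the difference between these groups. There were 3 Spl/LN control, 3 Spl/LN Fat1562, 2 VAT control and 3 VAT Fat1562 libraries of 1000 double-sorted cells each. The labels do not say whether a library came from 1 mouse, so the spread between libraries may be partly technical.

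Type I interferons (interferon alpha and beta) bind a receptor made of IFNAR1 and IFNAR2 and activate the kinases JAK1 and TYK2. These kinases switch on ISGF3, a factor that contains STAT2 and IRF9 and binds the interferon-stimulated response element (ISRE) in the promoters of antiviral genes. Interferon gamma acts through its own receptor and a different promoter element, GAS, and many genes respond to both. In adipose tissue, type I interferon is known for a link with the loss of Tregs in obesity.

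The libraries held 4490242 to 6570057 counts. Foxp3 was at 6759 to 10270 normalized counts in the 11 libraries and Cd4 at 2118 to 3524. A normalized count is a count divided by the library total after TMM scaling, which adjusts for differences in composition, and set to the mean scaled total. The 12 macrophage and monocyte markers summed to 48.9 to 284 normalized counts, the 9 adipocyte and stroma markers to at least 16.1 and at most 45.03, and the 6 CD8 T and NK markers to 106 to 342. VAT control 2 stood apart in immunoglobulin transcripts: its 7 B cell markers summed to 39101 against 6908 in VAT control 1, with Ighm at 28600 and Igkc at 10340, while Pax5 was at 6.25. Ighm was at 6025 to 17060 in the other libraries. The B cell sum also moved with the groups, at 17380 to 18450 in Spl/LN control, 12230 to 13350 in Spl/LN Fat1562 and 6604 to 8853 in VAT Fat1562, and the part of these transcripts in the results was not tested. The 8 dendritic cell markers summed to 920 to 1880. The labels name no batch.

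RefSeq promoters, from 250 bases before to 50 bases after each start on GRCm38.p6, were on hand for 44 of the 57 genes. The ISRE core, GAAA then 2 bases of any kind then GAAA, was searched on both strands, where the other strand reads TTTC, 2 bases and TTTC. It occurred in 18 of the 44 (40.9%) and in 1079 of 27025 genes in all (3.99%). The GAS element TTCNNNGAA, which reads the same on both strands, occurred in 9 of the 44 (20.5%) and in 9.55% of all genes. A match describes letters in this window and shows no binding. In Bst2 the first core overlapped a GAS match by their shared GAA. The 160 bases before the start are printed for 8 genes that the results return to, 5′ to 3′ on the strand of the gene, with ISRE cores in capitals. The first pair carried overlapping cores, from 78 to 57 bases before the start in Isg15 and from 20 to 5 bases before it in Oas1a. The printed stretch before Isg15 is chr4:156200819-156200978 and that before Oas1a is chr5:120907526-120907685, both on the minus strand.
Isg15: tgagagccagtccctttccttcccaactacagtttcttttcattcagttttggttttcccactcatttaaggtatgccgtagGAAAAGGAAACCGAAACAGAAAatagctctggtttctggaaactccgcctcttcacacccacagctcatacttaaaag
Oas1a: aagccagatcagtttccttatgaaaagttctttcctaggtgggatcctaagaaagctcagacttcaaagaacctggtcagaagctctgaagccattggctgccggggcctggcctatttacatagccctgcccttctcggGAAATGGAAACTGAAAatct
Oas3 lies next to Oas2 on chromosome 5, with Oas1a farther along the same chromosome. The stretch before Oas3 is chr5:120777660-120777819 on the minus strand. The stretch before Ifit1, chr19:34640729-34640888 on the plus strand, held a pair of cores in the opposite orientation.
Oas3: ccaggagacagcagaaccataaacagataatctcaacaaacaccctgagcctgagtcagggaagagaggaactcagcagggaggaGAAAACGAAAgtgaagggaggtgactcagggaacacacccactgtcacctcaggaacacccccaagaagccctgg
Ifit1: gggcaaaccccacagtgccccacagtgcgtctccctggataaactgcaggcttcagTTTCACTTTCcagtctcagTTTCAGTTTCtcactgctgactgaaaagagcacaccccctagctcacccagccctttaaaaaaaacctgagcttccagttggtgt
The stretches before Bst2, chr8:71537473-71537632, and Lgals9, chr11:78984925-78985084, both on the minus strand, are shown because Bst2 was higher in VAT of control mice and Lgals9 fell in VAT after Fat1562.
Bst2: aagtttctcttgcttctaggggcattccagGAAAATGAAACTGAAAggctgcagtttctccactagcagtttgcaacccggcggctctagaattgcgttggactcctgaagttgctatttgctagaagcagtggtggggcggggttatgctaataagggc
Lgals9: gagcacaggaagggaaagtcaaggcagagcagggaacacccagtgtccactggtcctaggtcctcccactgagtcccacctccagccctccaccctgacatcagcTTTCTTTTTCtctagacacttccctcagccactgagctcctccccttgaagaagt
Ube2l6 and Parp12 rose after Fat1562 in Spl/LN. The stretches before them, chr2:84798668-84798827 on the plus strand for Ube2l6 and chr6:39118350-39118509 on the minus strand for Parp12, held no core.
Ube2l6: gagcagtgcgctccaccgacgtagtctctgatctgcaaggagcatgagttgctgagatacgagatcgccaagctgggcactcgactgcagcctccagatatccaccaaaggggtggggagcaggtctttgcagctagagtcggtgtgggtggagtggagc
Parp12: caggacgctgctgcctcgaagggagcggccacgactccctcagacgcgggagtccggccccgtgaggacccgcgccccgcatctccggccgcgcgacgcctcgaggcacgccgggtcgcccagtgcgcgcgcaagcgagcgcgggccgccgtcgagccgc
Of the 11 genes called higher after Fat1562 in Spl/LN, 4 were among the 18 with a core, 4 among the 26 without one and 3 among the 13 genes not in the promoter table.

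Per kilobase of annotated exon (GENCODE vM21, GRCm38), the lymphocyte surface proteins stood highest. Ly6a was at 3184 to 7290 and Ly6e at 3548 to 4429 normalized counts per kilobase across the 4 group means. Slfn2, which keeps T cells quiescent, followed at 844 to 1285, Lgals9 at 791 to 1098, Bst2 at 568 to 1193 and Lgals3bp at 296 to 936. The lowest levels per kilobase were those of Ifi44 at 0.341 to 4.34 and Trim21 at 6.79 to 16.7. The 57 genes together took 0.929% to 1.23% of the counts of a library.

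**Figure D1:**
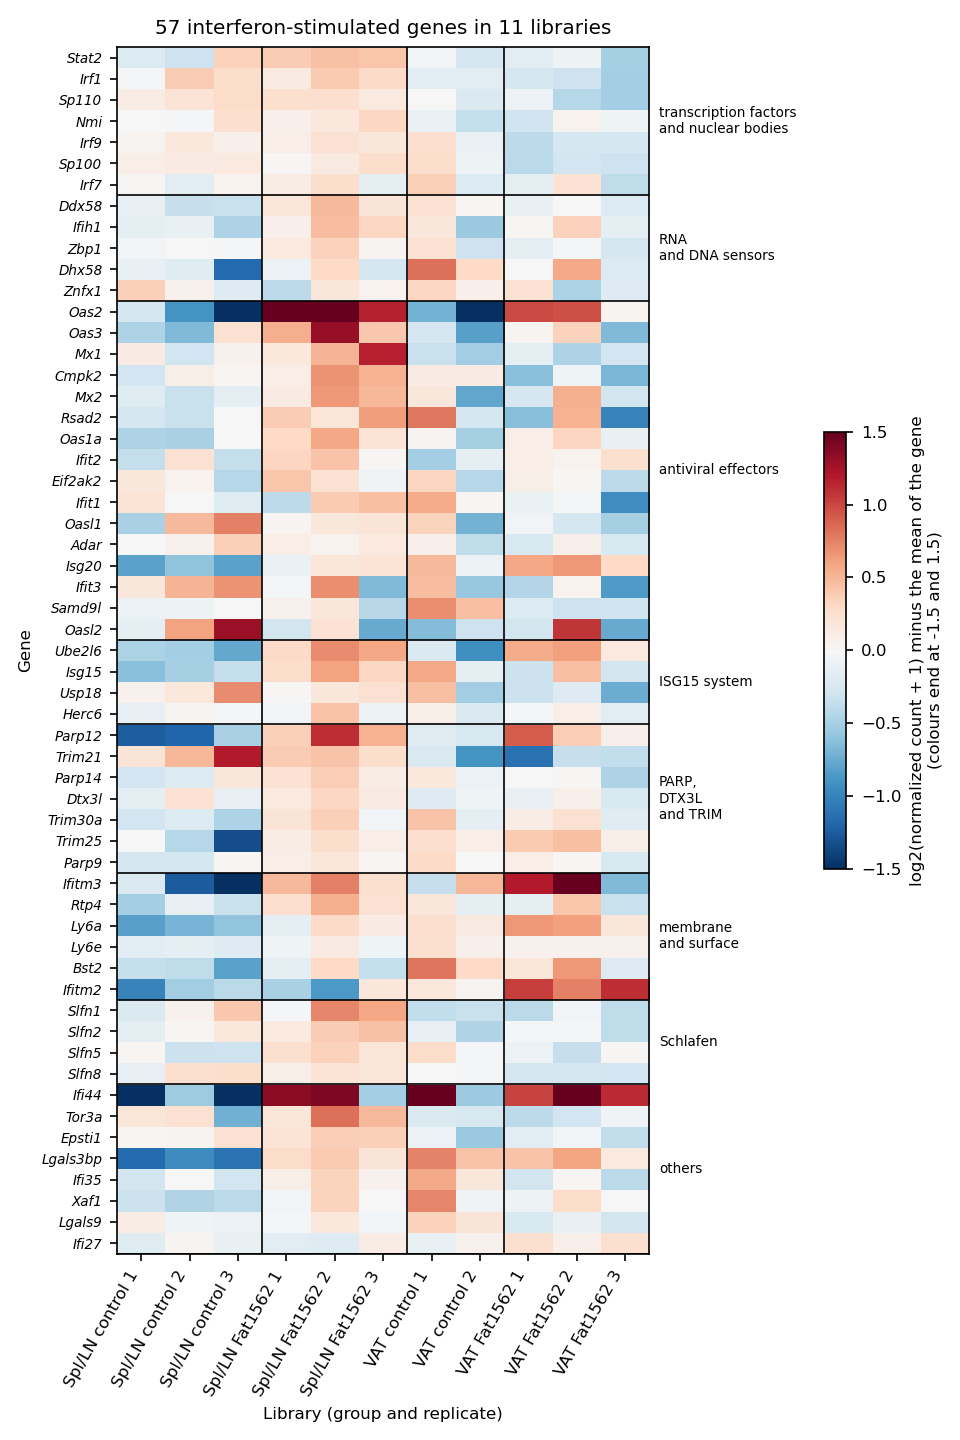
Each row is 1 of the 57 interferon-stimulated genes, ordered by role, and each column is 1 of the 11 libraries. Colour shows log2(normalized count + 1) minus the mean of the gene over the libraries, ending at -1.5 and 1.5; Spl/LN Fat1562 holds the highest group mean for 32 genes and the lowest for 0.

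Spl/LN Fat1562 had the highest of the 4 group means for 32 of the 57 genes and the lowest for none (0). Spl/LN control had the lowest mean for 22 genes and VAT Fat1562 for 22. VAT control had the highest mean for 12 and the lowest for 13. As a summary of each library, the median over the 57 genes of the deviation from the gene's mean was taken on the log2 scale. It was -0.15, -0.11 and -0.11 in Spl/LN control and 0.11, 0.35 and 0.18 in Spl/LN Fat1562, so these groups did not overlap. It was 0.17 and -0.15 in VAT control and -0.09, 0.05 and -0.27 in VAT Fat1562, which overlapped. The 2 VAT control libraries thus lay on opposite sides of the average for this set, and the lower one, VAT control 2, was the library with the high immunoglobulin counts.

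**Figure D2:**
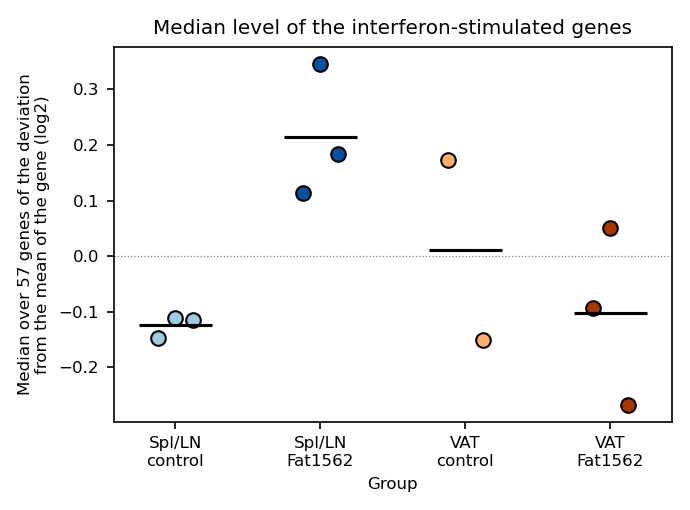
Each point is 1 library, and the y axis is the median over the 57 genes of the log2 deviation from the gene's mean; bars are group means. The 3 Spl/LN Fat1562 points, from 0.11 to 0.35, lie above the 3 Spl/LN control points, and the 2 VAT control points lie on either side of 0.

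After Fat1562, interferon-stimulated genes of Spl/LN Tregs were called higher 11 times and lower 0 times. In these libraries of sorted cells, a change in the share of Tregs with high levels and a change within each Treg cannot be told apart. Calls are from edgeR's quasi-likelihood test at an adjusted p under 0.05, with Benjamini-Hochberg adjustment over the 12932 genes tested. The 11 genes were Ddx58, Oas1a, Oas2, Oas3, Isg20, Isg15, Ube2l6, Parp12, Ly6a, Rtp4 and Lgals3bp. They made up 19.3% of the 57, beside 3.98% of all genes tested that were called in either direction, 2.58% higher and 1.40% lower. DESeq2 called 12 higher and 0 lower, and 30 of the 57 passed an unadjusted p under 0.05 by edgeR in either direction. The estimate was positive for 50 of the 57, and the median log2 fold change was 0.35, beside -5.45e-06 for all genes. Counts of the 2 groups did not overlap for 26 genes higher in Fat1562, beside 11.4% of all genes, and for 0 genes lower, beside 9.84%. Leaving out Spl/LN Fat1562 2, the library with the highest median, lowered the number of calls from 11 to 5 with a median of 0.255. Leaving out Spl/LN Fat1562 1 gave 7.

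In VAT, Fat1562 against control gave 7 calls, 2 higher and 5 lower. Oas2 and Ube2l6 rose, and Irf9, Sp100, Samd9l, Ifi35 and Lgals9 fell. They made up 12.3% of the 57, beside 8.30% of all genes (4.33% higher and 3.97% lower). The groups did not overlap for 6 genes higher after Fat1562 and 11 lower, beside 21.1% and 20% of all genes. The median log2 fold change was -0.09 (0.01 for all genes), and 24 estimates were positive and 33 negative. Oas2 and Ube2l6 were called higher in both tissues, 9 genes were called higher in Spl/LN without a call in VAT, and 5 were called lower in VAT without a call in Spl/LN. These calls leaned on the VAT control libraries. Without VAT control 1, 2 genes were called and the median was 0.13; without VAT control 2, 5 were called, all lower, and the median was -0.245. In such a fit the lone VAT control library is assumed to vary like the other groups. Without VAT Fat1562 1, 4 genes were called.

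**Figure D3:**
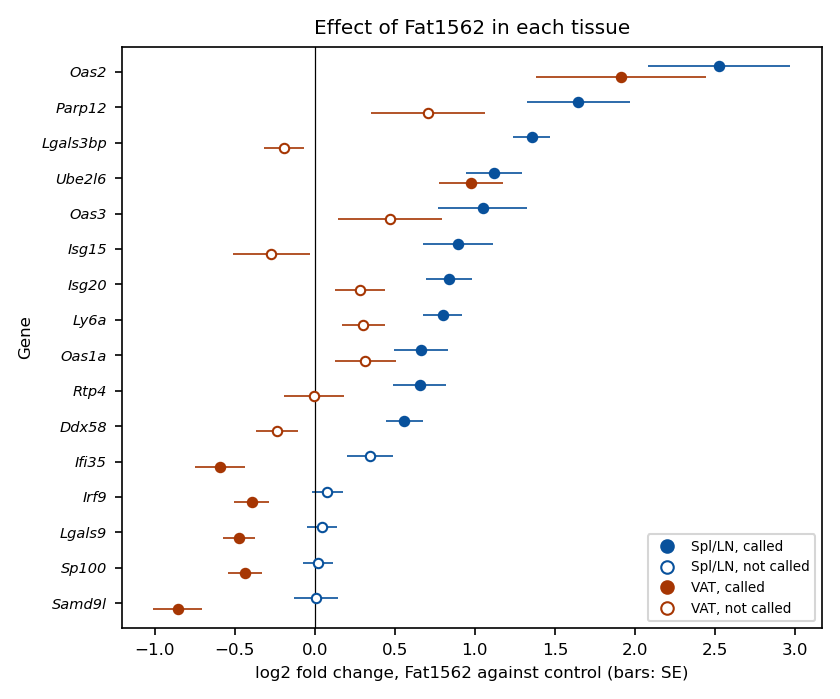
Rows are the interferon-stimulated genes called in either tissue, and the x axis is the log2 fold change of Fat1562 against control with its SE, blue for Spl/LN and brown for VAT. Filled points were called; only Oas2 and Ube2l6 have 2 filled points, and 41 of the 57 genes were called in neither tissue and are not drawn.

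The difference between these effects, VAT minus Spl/LN, was tested as an interaction. It was negative for 49 of the 57 genes with a median of -0.46 on the log2 scale (0.01 for all genes). It was called for 6 genes, each lower: Ddx58, Cmpk2, Samd9l, Ifi35, Lgals3bp and Lgals9. They made up 10.5% of the 57, beside 3.72% of all genes (1.70% higher and 2.02% lower). The call for Lgals3bp held under every alternative tried. The count fell to 1 without Spl/LN Fat1562 2, to 1 without VAT control 1 and to 3 without VAT Fat1562 3.

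Between tissues of control mice, 13 genes were called, 12 higher in VAT and 1 lower. Ddx58, Dhx58, Isg20, Samd9l, Isg15, Trim30a, Bst2, Ly6a, Ly6e, Ifi35, Xaf1 and Lgals3bp were higher and Irf1 was lower. They made up 22.8% of the 57, beside 16.3% of all genes (9.09% higher and 7.18% lower). The groups did not overlap for 17 genes higher in VAT and 8 lower, beside 20.9% and 20.4% of all genes. The median log2 fold change was 0.09, beside -0.03 for all genes. Scaling by library totals alone shifted the median of all genes by -0.15 and split the 14 calls then made into 7 higher and 7 lower (904 and 1630 over all genes, where TMM gave 1175 and 928); the median of the 57 became -0.07, while its distance from that of all genes was 0.116 with TMM and 0.11 with library totals. Without VAT control 1, 4 genes were called and the median was -0.06. Without VAT control 2, 12 were called and the median was 0.34.

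Between tissues of Fat1562 mice the balance lay the other way, with 2 genes called higher in VAT (Ly6a and Ifitm2) and 14 lower. The lower genes were Stat2, Irf1, Irf9, Sp100, Sp110, Ddx58, Oas3, Cmpk2, Mx1, Slfn1, Slfn2, Slfn8, Epsti1 and Tor3a. The 16 made up 28.1% of the 57, beside 15.0% of all genes (8.26% higher and 6.73% lower). The median log2 fold change was -0.29 (-0.01 for all genes), 45 of 57 estimates were negative, and for 25 genes the VAT counts lay below the Spl/LN counts without overlap, beside 17.4% of all genes, and for 2 above them, beside 18.8%. With library totals alone, 1 gene was higher and 19 were lower, beside 890 and 1152 over all genes, where TMM gave 1068 and 870. Without Spl/LN Fat1562 2, 8 genes were called and the median was -0.235. Without VAT Fat1562 1, 10 were called. This comparison and the effect of Fat1562 in Spl/LN share the Spl/LN Fat1562 libraries, and are given side by side without a measure of likeness.

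**Figure D4:**
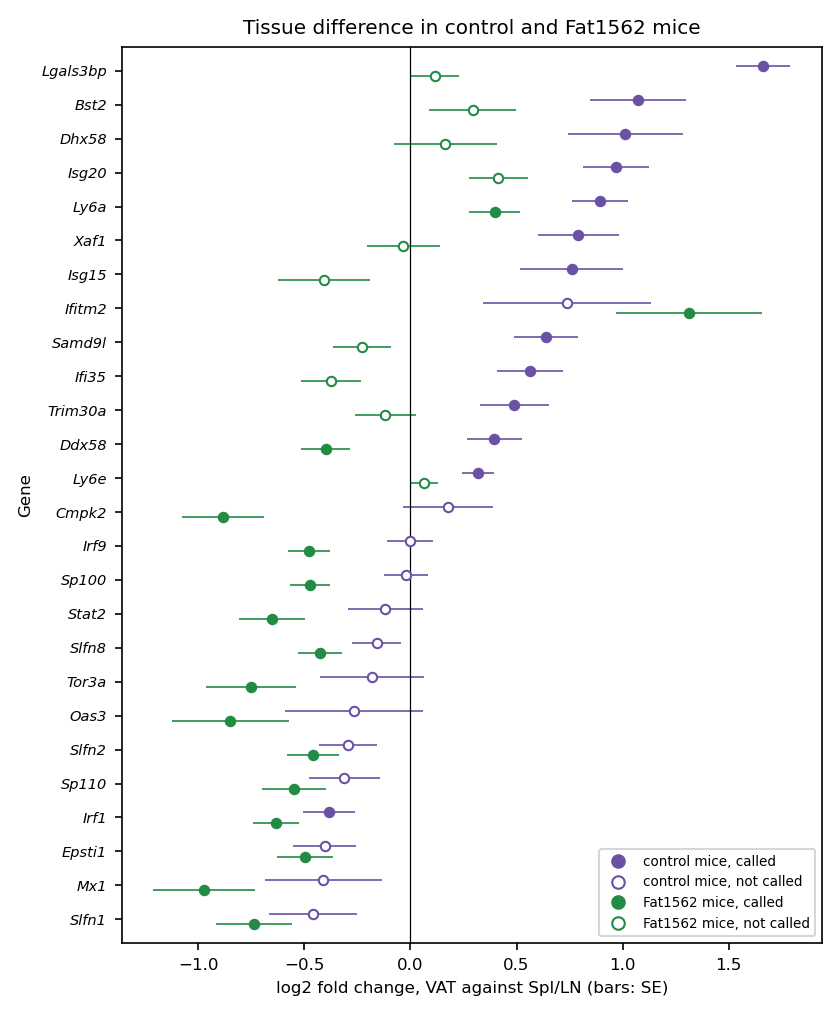
Rows are the interferon-stimulated genes called in either comparison of tissues, and the x axis is the log2 fold change of VAT against Spl/LN with its SE, purple for control mice and green for Fat1562 mice. Filled points were called; Ddx58 has filled points on both sides of 0, and 31 of the 57 genes were called in neither and are not drawn.

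Among the 7 transcription factors and nuclear body proteins, 5 were called lower in VAT than in Spl/LN of Fat1562 mice (71.4%, beside 6.73% of all genes). For Fat1562 in Spl/LN, edgeR called 0 of the 7 (1 at an unadjusted p under 0.05), beside 3.98% of all genes. Stat2, a subunit of ISGF3, stood at 743, 769 and 756 normalized counts in Spl/LN Fat1562 and at 503, 539 and 401 in VAT Fat1562, with 493, 458 and 721 in Spl/LN control and 551 and 476 in VAT control. The 2 Fat1562 groups did not overlap. The log2 difference, VAT minus Spl/LN, was -0.65 ± 0.16 (SE; edgeR adjusted p = 0.00831). Irf9, the DNA-binding subunit of ISGF3, was at 1541, 1679 and 1617 in Spl/LN Fat1562, 1474, 1596 and 1508 in Spl/LN control, 1710 and 1334 in VAT control and 1088, 1195 and 1193 in VAT Fat1562. The 3 VAT Fat1562 libraries were below the other 8. Irf9 was lower than in Spl/LN by -0.48 ± 0.10 (adjusted p = 0.00277) and fell in VAT after Fat1562 by 0.39 ± 0.11 on the log2 scale (adjusted p = 0.033). The fall in VAT lost its call under 6 of 19 alternatives, among them leaving out VAT control 1 (edgeR adjusted p = 0.452) or any 1 of the 3 VAT Fat1562 libraries.

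Irf1, a factor that both interferon types induce, was lower in VAT of control mice, at 1779 and 1772 against 1957, 2593 and 2401, a log2 difference of -0.38 ± 0.12 (edgeR adjusted p = 0.0386), a call lost under 7 of 19 alternatives, among them leaving out either VAT control library, Spl/LN control 2, Spl/LN control 3, Spl/LN Fat1562 3 or VAT Fat1562 2. After Fat1562 it was at 1668, 1608 and 1397 in VAT and at 2190, 2616 and 2444 in Spl/LN, a difference of -0.63 ± 0.11 (adjusted p = 5e-04). No VAT library reached the lowest Spl/LN library. Sp100, a scaffold of nuclear bodies, was at 1815, 1970 and 1937 in VAT Fat1562 and at 2282 to 2884 elsewhere. Those 3 libraries were the lowest of the 11 for Sp100. It fell in VAT after Fat1562 by 0.43 ± 0.11 on the log2 scale (edgeR adjusted p = 0.0142), a call lost without VAT control 1. Sp110, of the same family, was at 257, 204 and 192 in VAT Fat1562 and 324, 325 and 303 in Spl/LN Fat1562, a difference of -0.55 ± 0.15 (adjusted p = 0.0183) lost without Spl/LN Fat1562 1, Spl/LN Fat1562 2, VAT Fat1562 2 or VAT Fat1562 3. Sp110 shares 50.4% of its 38-base stretches with other annotated sequence, so its counts may hold reads of copies. Irf7, which amplifies interferon production, had estimates from -0.18 to 0.13 in the 4 comparisons of groups, with 766 to 1280 counts in the 11 libraries, and was not called.

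Ddx58, which encodes the RNA sensor RIG-I, differed in the most comparisons among the 5 sensors. It stood at 660, 567 and 571 in Spl/LN control and 816, 1010 and 825 in Spl/LN Fat1562, and at 841 and 735 in VAT control and 668, 718 and 624 in VAT Fat1562. The Fat1562 libraries were thus the higher group in Spl/LN and the lower group in VAT, without overlap in either tissue. It rose in Spl/LN by 0.56 ± 0.12 (edgeR adjusted p = 0.0108), and the log2 estimate in VAT was -0.24 ± 0.13 (adjusted p = 0.327). The difference between the 2 effects was -0.79 ± 0.175 (adjusted p = 0.0156). Without Spl/LN Fat1562 2 the rise and the difference were not called, and without VAT control 1 the difference was not. The tissue call in control mice was lost under 13 of 19 alternatives, and that in Fat1562 mice without Spl/LN Fat1562 2, VAT Fat1562 1 or VAT Fat1562 3. Dhx58, a relative of RIG-I that tunes its signal, was at 810 and 561 in VAT control and at 421, 400 and 202 in Spl/LN control, 2.02-fold higher (adjusted p = 0.0155). That call was lost without VAT control 1 (adjusted p = 0.21). Ifih1, Zbp1 and Znfx1 were not called in any comparison.

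The antiviral effectors gave the largest fold change of a called gene, for Oas2. The oligoadenylate synthetases make the messenger that activates RNase L. Oas2 was at 51.2, 32.3 and 8.23 in Spl/LN control, 206, 184 and 138 in Spl/LN Fat1562, 36.9 and 16.2 in VAT control and 123, 120 and 63.0 in VAT Fat1562. Fat1562 and control did not overlap in either tissue. The rise was 5.76-fold in Spl/LN (log2 2.53 ± 0.44, edgeR adjusted p = 0.00282) and 3.76-fold in VAT (log2 1.91 ± 0.53, adjusted p = 0.0334), and the difference between them, -0.61 ± 0.68, was not called (adjusted p = 0.729). The gene lies at chr5:120730333-120749853 on the minus strand of GRCm38, and no 38-base stretch of its exons occurs in another annotated gene. The VAT call was lost without VAT control 1, VAT control 2, VAT Fat1562 1, VAT Fat1562 2 or Spl/LN Fat1562 2 (adjusted p up to 0.27).

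Oas3, beside Oas2 on chromosome 5, and Oas1a, on the same chromosome, also rose in Spl/LN. Oas3 was at 231, 201 and 373 in Spl/LN control and 465, 789 and 420 in Spl/LN Fat1562, 2.07-fold higher (edgeR adjusted p = 0.0443), with 266 and 180 in VAT control and 327, 404 and 200 in VAT Fat1562. Spl/LN Fat1562 2 held the highest value, and the call was lost under 7 of 19 alternatives, among them leaving it out, leaving out Spl/LN Fat1562 1, Spl/LN control 1, Spl/LN control 2 or VAT Fat1562 1, and DESeq2 (adjusted p up to 0.256). Oas1a was at 388, 383 and 540 in Spl/LN control and 659, 802 and 618 in Spl/LN Fat1562, 1.58-fold higher (adjusted p = 0.037), a call lost under 6 of 19 alternatives, among them leaving out Spl/LN control 1, Spl/LN control 2 or any 1 Spl/LN Fat1562 library (up to 0.188). Oas1a shares 64.4% of its 38-base stretches with other annotated sequence, so its value may include close copies. The related Oasl1 and Oasl2 were not called, and their estimates in Spl/LN were -0.21 ± 0.31 and -0.93 ± 0.43.

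Isg20, an exonuclease that degrades single-stranded RNA, was lowest in Spl/LN control and higher in each other group. It stood at 496, 566 and 492 there, at 804, 975 and 998 in Spl/LN Fat1562, at 1206 and 817 in VAT control and at 1294, 1350 and 1058 in VAT Fat1562. It rose 1.79-fold in Spl/LN after Fat1562 (edgeR adjusted p = 0.00212) and was 1.96-fold higher in VAT than in Spl/LN of control mice (adjusted p = 0.000277). Both calls held under every alternative tried. In VAT, Fat1562 and control overlapped for Isg20, with an estimate of 0.28 ± 0.16 (adjusted p = 0.323).

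Samd9l, a growth-restraining antiviral factor, had the smallest adjusted p among the genes that fell in VAT. It was at 935 and 788 in VAT control and 497, 463 and 468 in VAT Fat1562, with 538, 547 and 576 in Spl/LN control and 600, 646 and 429 in Spl/LN Fat1562. The 2 VAT control libraries were the highest of the 11. It was 1.56-fold higher in VAT than in Spl/LN of control mice (edgeR adjusted p = 0.00658) and 1.81-fold lower in VAT after Fat1562 (adjusted p = 0.00146), while the estimate in Spl/LN was 0.01 ± 0.14. The fall in VAT held under every alternative tried, and the difference between tissues was -0.87 ± 0.20 (adjusted p = 0.0232), a call lost without VAT control 1, Spl/LN Fat1562 1, Spl/LN Fat1562 2, VAT Fat1562 2 or VAT Fat1562 3. The tissue call in control mice was lost without VAT control 1 (0.11).

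Cmpk2, a mitochondrial nucleotide kinase, and Mx1, a dynamin-like GTPase, were lower in VAT than in Spl/LN of Fat1562 mice. Cmpk2 was at 274, 408 and 366 in Spl/LN Fat1562 against 166, 244 and 159 in VAT Fat1562, a log2 difference of -0.88 ± 0.19 (edgeR adjusted p = 0.00413), with 210, 270 and 260 in Spl/LN control and 278 and 279 in VAT control. Its estimates for Fat1562 were 0.50 ± 0.19 in Spl/LN and -0.56 ± 0.21 in VAT, neither called alone, and the difference of -1.06 ± 0.285 was called (adjusted p = 0.048) and lost under 9 of 18 alternatives, among them leaving out either VAT control library. Mx1 was at 149, 191 and 302 in Spl/LN Fat1562 and 122, 96.8 and 110 in VAT Fat1562, a difference of -0.97 ± 0.24 (adjusted p = 0.00979) that was lost without Spl/LN Fat1562 3 or VAT Fat1562 2. Rsad2, the neighbour of Cmpk2 on chromosome 12 that encodes viperin, was at 148, 141 and 177 in Spl/LN control and 231, 202 and 274 in Spl/LN Fat1562, with an estimate of 0.60 ± 0.32 (adjusted p = 0.332). Ifit1, Ifit2 and Ifit3, which bind viral RNA or block its translation, were not called in any comparison, and Ifit3 shares 57.3% of its 38-base stretches with other sequence. Ifit1, shown above with its pair of cores, had a log2 estimate of 0.18 ± 0.23 in Spl/LN and -0.63 ± 0.26 in VAT (adjusted p = 0.73 and 0.158). Eif2ak2 (the kinase PKR), Adar (an RNA editing enzyme) and Mx2 were not called either.

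The ISG15 system attaches a ubiquitin-like protein to targets, with Ube2l6 as the conjugating enzyme, Herc6 as a ligase and Usp18 as the enzyme that removes it. Ube2l6 rose in both tissues. It was at 360, 351 and 293 in Spl/LN control, 608, 821 and 750 in Spl/LN Fat1562, 430 and 264 in VAT control and 736, 767 and 552 in VAT Fat1562. Each Fat1562 library was above each control library. The rise was 2.17-fold in Spl/LN (edgeR adjusted p = 0.00116) and 1.97-fold in VAT (adjusted p = 0.00518, lost without VAT control 2 at 0.121), and the difference on the log2 scale was -0.14 ± 0.26 (adjusted p = 0.852). The gene lies at chr2:84798828-84810335, and 12.4% of its 38-base stretches occur elsewhere.

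Isg15 itself was at 154, 167 and 185 in Spl/LN control, 286, 360 and 295 in Spl/LN Fat1562, 353 and 216 in VAT control and 189, 324 and 195 in VAT Fat1562. The Spl/LN control libraries were the lowest of the 11. Isg15 rose 1.86-fold in Spl/LN (edgeR adjusted p = 0.0292) and was 1.69-fold higher in VAT than in Spl/LN of control mice (adjusted p = 0.0421). The first call was lost without Spl/LN control 1, Spl/LN control 2 or any 1 Spl/LN Fat1562 library (up to 0.146), and the second under 9 of 19 alternatives, VAT control 1 left out among them. The estimate for Fat1562 in VAT was -0.27 ± 0.24. Usp18 was at 175 to 484 and Herc6 at 135 to 210 in the 11 libraries, and neither was called, with estimates in Spl/LN of -0.20 ± 0.22 and 0.15 ± 0.19.

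**Figure D5:**
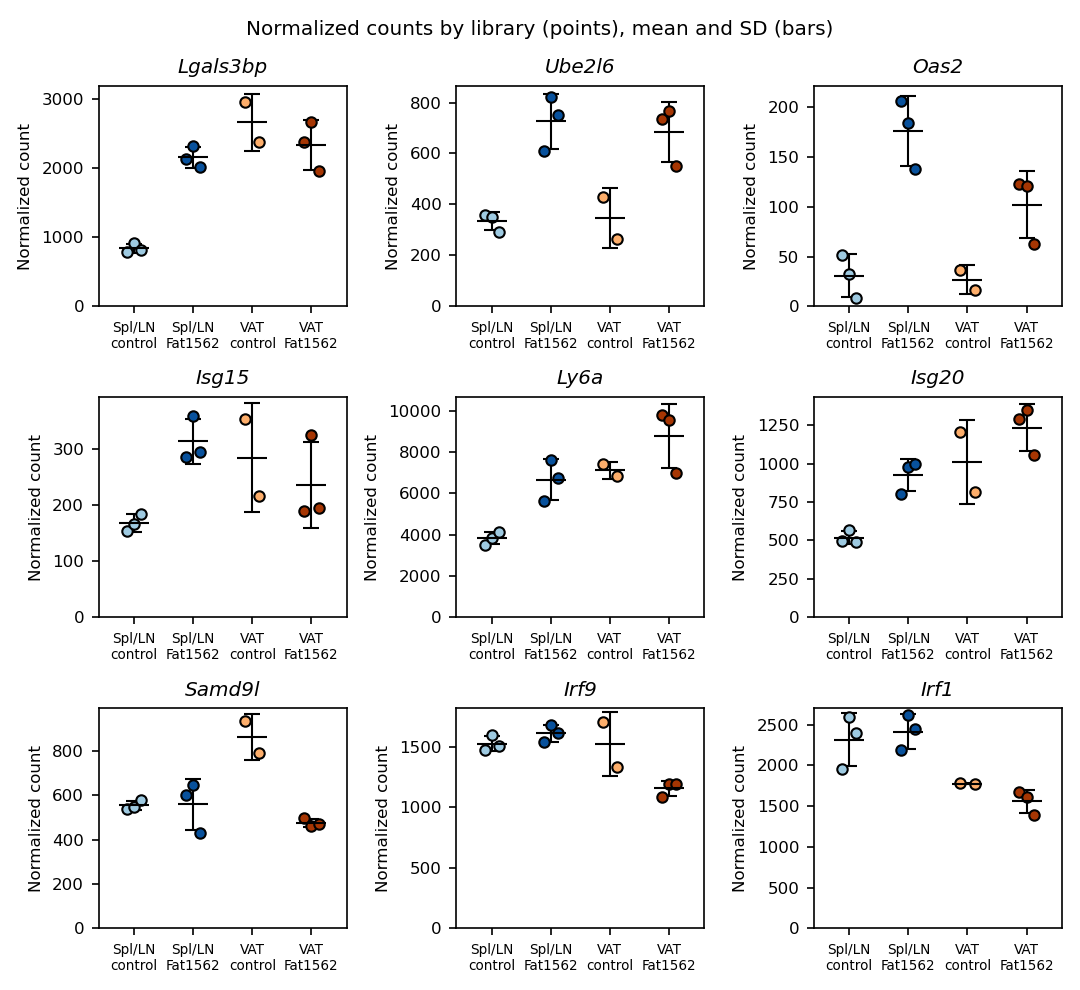
Normalized counts of 9 genes in each library (points, colour by group) with the group mean and SD (bars); every y axis is linear and starts at 0. Lgals3bp, Isg20 and Ly6a are lowest in the 3 Spl/LN control libraries, Ube2l6 and Oas2 are higher with Fat1562 in both tissues, and Samd9l is highest in the 2 VAT control libraries.

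Of the 7 genes for PARP, DTX3L and TRIM proteins, 1 rose in Spl/LN (14.3%, beside 2.58% of all genes). Parp12, a mono-ADP-ribosyltransferase, was at 25.1, 26.1 and 43.0 in Spl/LN control, 78.3, 132 and 87.4 in Spl/LN Fat1562, 53.2 and 51.2 in VAT control and 115, 78.5 and 63.9 in VAT Fat1562. Fat1562 and control did not overlap in either tissue. The rise in Spl/LN was 3.13-fold (edgeR adjusted p = 0.00691) and was lost without Spl/LN Fat1562 2 (adjusted p = 0.0617). In VAT the log2 estimate was 0.71 ± 0.36 (adjusted p = 0.271). Trim30a, which restrains inflammatory signalling, was 1.40-fold higher in VAT than in Spl/LN of control mice, at 1436 and 967 against 876, 923 and 772 (adjusted p = 0.0483), and lost that call under 11 of 19 alternatives, VAT control 1 left out among them (up to 0.638). Parp9 and Dtx3l, which act as a pair, overlap by 458 bases on opposite strands, so their reads cannot be told apart there without strand. They, Parp14, Trim21 and Trim25 were not called.

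Membrane and surface proteins included the genes of highest level. Ly6a (Sca-1), a surface protein of activated lymphocytes, was at 3526, 3851 and 4132 in Spl/LN control, 5627, 7615 and 6770 in Spl/LN Fat1562, 7414 and 6833 in VAT control and 9793, 9558 and 7001 in VAT Fat1562. The Spl/LN control libraries were below the other 8. Ly6a rose 1.74-fold in Spl/LN (edgeR adjusted p = 0.000825), and was 1.86-fold higher in VAT of control mice (adjusted p = 0.000117) and 1.32-fold higher in VAT of Fat1562 mice (adjusted p = 0.0325). The 2 Fat1562 groups overlapped, and the last call was lost with library totals alone and without Spl/LN Fat1562 1, Spl/LN Fat1562 3, VAT Fat1562 1 or VAT Fat1562 2 (adjusted p up to 0.168), while the other 2 held throughout. Ly6a shares 27.3% of its 38-base stretches with other annotated sequence.

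Bst2 (tetherin), which holds budding virus at the cell surface and whose promoter cores are printed above, was at 1265 and 890 in VAT control and 565, 557 and 416 in Spl/LN control. It was 2.10-fold higher in VAT (edgeR adjusted p = 0.00275, and 0.0775 without VAT control 1). After Fat1562 the tissues overlapped, at 823, 1137 and 634 in VAT and 661, 894 and 565 in Spl/LN. Ly6e was at 17704 and 15813 in VAT control and at 13522, 13566 and 13185 in Spl/LN control, 1.25-fold higher (adjusted p = 0.0063), and this call was lost with library totals alone and without VAT control 1. Rtp4, a chaperone of membrane receptors, rose 1.575-fold in Spl/LN, from 509, 665 and 574 to 861, 1046 and 848 (adjusted p = 0.0361). That call was lost without Spl/LN control 1, Spl/LN control 3 or any 1 Spl/LN Fat1562 library. Its estimate in VAT was -0.01 ± 0.19.

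Ifitm2 and Ifitm3 block entry of virus into the cytoplasm and were near the low end of the set. Ifitm2 was at 78.8, 64.2 and 82.2 in VAT Fat1562 and 26.7, 20.3 and 42.5 in Spl/LN Fat1562, 2.49-fold higher (edgeR adjusted p = 0.0147), a call lost without Spl/LN Fat1562 1, Spl/LN Fat1562 2, VAT Fat1562 1 or VAT Fat1562 3. It shares 52.6% of its 38-base stretches with other sequence. Ifitm3 spread widely within VAT Fat1562, at 55.2, 98.9 and 14.6, and was not called.

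The list held 4 Schlafen genes, a family known for restraint of growth and translation, and each had a negative estimate between tissues of Fat1562 mice. Slfn1, Slfn2 and Slfn8 were called lower in VAT (75.0%, beside 6.73% of all genes), and Slfn5 had an estimate of -0.39 ± 0.18 (edgeR adjusted p = 0.173). Slfn1 was at 588, 990 and 889 in Spl/LN Fat1562 and 448, 577 and 456 in VAT Fat1562, a difference of -0.74 ± 0.18 (adjusted p = 0.00967). Slfn2 was at 1882, 2228 and 2305 against 1682, 1677 and 1311, a difference of -0.46 ± 0.12 (adjusted p = 0.0153). Slfn8 was at 1144, 1242 and 1228 against 902, 903 and 884, a difference of -0.43 ± 0.10 (adjusted p = 0.0093), the one of the 3 calls that held under every alternative. Both other calls were lost without Spl/LN Fat1562 2, that of Slfn1 also without VAT Fat1562 1, and that of Slfn2 also without Spl/LN Fat1562 3 or VAT Fat1562 3. The VAT libraries lay below the Spl/LN libraries for each of the 4 genes, beside 17.4% of all genes. Slfn8 shares 21.2% of its 38-base stretches with other sequence. No Schlafen gene was called for Fat1562 in either tissue (0 of 4 by edgeR, with 2 in Spl/LN and 1 in VAT at an unadjusted p under 0.05), beside 3.98% of all genes in Spl/LN and 8.30% in VAT.

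Lgals3bp, a secreted glycoprotein that binds galectins, had the smallest adjusted p of the set in 3 of the 5 comparisons. It was at 793, 915 and 820 in Spl/LN control, 2131, 2316 and 2020 in Spl/LN Fat1562, 2954 and 2374 in VAT control and 2375, 2670 and 1956 in VAT Fat1562. The 3 Spl/LN control libraries stood far below the other 8, which overlapped among themselves. Lgals3bp rose 2.56-fold in Spl/LN (log2 1.35 ± 0.12, edgeR adjusted p = 4.43e-06) and was 3.16-fold higher in VAT than in Spl/LN of control mice (log2 1.66 ± 0.13, adjusted p = 4.55e-08). After Fat1562 the tissues differed by 0.11 ± 0.11 (adjusted p = 0.578), and the effect in VAT was -0.19 ± 0.13 (adjusted p = 0.431). The difference between the effects was -1.55 ± 0.17 (adjusted p = 7.52e-05). The gene lies at chr11:118392751-118402092 on the minus strand, and no 38-base stretch of its exons occurs elsewhere.

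Lgals9, which encodes galectin-9, was at 2464 and 2228 in VAT control and 1660, 1803 and 1609 in VAT Fat1562, with 2094, 1862 and 1822 in Spl/LN control and 1916, 2170 and 1879 in Spl/LN Fat1562. VAT Fat1562 was the lowest group without overlap. Lgals9 fell in VAT by 0.47 ± 0.10 on the log2 scale (edgeR adjusted p = 0.00668), and the difference from the effect in Spl/LN was -0.52 ± 0.14 (adjusted p = 0.0435). The fall was lost without VAT control 1 (adjusted p = 0.0984), and the difference under 12 of 18 alternatives. Ifi35, a partner of Nmi, was at 992 and 750 in VAT control and 552, 680 and 504 in VAT Fat1562, a fall of 1.51-fold (adjusted p = 0.0259) that was lost without VAT control 1, VAT Fat1562 1 or VAT Fat1562 3. In Spl/LN it was at 553, 671 and 547 in control and 709, 845 and 696 after Fat1562, with an estimate of 0.34 ± 0.14 (adjusted p = 0.197). The difference between its effects was -0.94 ± 0.21 (adjusted p = 0.018), lost without VAT control 1 and without Spl/LN Fat1562 2. Ifi35 overlaps the opposite-strand gene Gm11626 by 290 bases.

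Xaf1, which promotes cell death by binding XIAP, was at 723 and 419 in VAT control and 347, 316 and 328 in Spl/LN control, 1.73-fold higher (edgeR adjusted p = 0.00814, and 0.339 without VAT control 1). Epsti1 and Tor3a were lower in VAT than in Spl/LN of Fat1562 mice. Epsti1 was at 518, 566 and 448 against 672, 747 and 741, a difference of -0.50 ± 0.13 (adjusted p = 0.0161), and Tor3a at 239, 257 and 302 against 355, 552 and 438, a difference of -0.75 ± 0.21 (adjusted p = 0.0243). The 2 groups did not overlap for either gene. Both calls were lost without Spl/LN Fat1562 2 or Spl/LN Fat1562 3, that of Epsti1 also without VAT Fat1562 3, and that of Tor3a also without VAT Fat1562 1 or VAT Fat1562 2. Ifi44 was at 0, 6.26 and 0 in Spl/LN control, 25.8, 26.8 and 6.42 in Spl/LN Fat1562, 31.5 and 6.25 in VAT control and 20.3, 37.7 and 21.9 in VAT Fat1562, and was not called. Nor was Ifi27, at 663 to 896 in the 11 libraries.

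Of 43 other genes of interferon production and signalling, 25 passed the limit for testing. The ligands were not among them: Ifnb1 was at 0 in every group, and the largest group mean of an Ifna gene was 2.97, for Ifna4 in VAT Fat1562. Ifng had group means of 0 to 2.38. In control mice 9 of the 25 were called between tissues (36.0%, beside 16.3% of all genes), and in Fat1562 mice 10 (40.0%, beside 15.0%). Fat1562 went with 4 calls in Spl/LN, beside 3.98% of all genes, 3 in VAT, beside 8.30%, and 3 in the difference between them, beside 3.72%. Single calls of these pathway genes, and of the GBP, IRG and class I genes below, were not followed under the alternatives.

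Among the receptor subunits, Ifnar1 was called higher in VAT of control mice and Ifngr1 in VAT of both control and Fat1562 mice. Ifnar1, a subunit of the type I receptor, was at 2286 ± 73.1 (SD, n = 2) in VAT control and 1469 ± 93.7 (n = 3) in Spl/LN control, 1.56-fold higher by edgeR (adjusted p = 0.000316). In Fat1562 mice the tissues overlapped for Ifnar1, and its log2 estimate of 0.19 ± 0.09 (SE) was not called (edgeR adjusted p = 0.211). Ifnar2, the other subunit, had group means of 548 to 788 and negative estimates for VAT against Spl/LN. On the log2 scale they were -0.40 in control mice and -0.34 in Fat1562 mice, neither called (edgeR adjusted p = 0.0715 and 0.0883). Ifngr1, a subunit of the interferon gamma receptor, was at 14447 ± 316 in VAT control, 11442 ± 554 in VAT Fat1562, 4721 ± 401 in Spl/LN Fat1562 and 3111 ± 295 in Spl/LN control. Its 4 group means were thus ordered by tissue, and Ifngr1 rose 1.52-fold with Fat1562 in Spl/LN (edgeR adjusted p = 0.000329) and fell 1.26-fold in VAT (adjusted p = 0.0271). Ifngr2, the other subunit of that receptor, had group means of 221 to 312 and was not called between tissues.

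Ptpn6, the phosphatase SHP-1 that dampens cytokine receptor signals, rose 1.97-fold in Spl/LN (edgeR adjusted p = 6.15e-05) and 1.99-fold in VAT (adjusted p = 9.32e-05). Socs3, an inhibitor of JAK kinases, fell by 0.93 ± 0.13 on the log2 scale in Spl/LN (adjusted p = 0.000343). Tlr7, an endosomal RNA sensor, was at 89.9, 106 and 81.4 in Spl/LN control, 31.5, 23.6 and 32.1 in Spl/LN Fat1562, 0 and 3.75 in VAT control and 15.8, 6.12 and 3.65 in VAT Fat1562.

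Related gene families that interferon also induces were counted in the same way. Of 16 GBP and IRG genes, which respond mainly to interferon gamma, 0 were called for Fat1562 in Spl/LN by edgeR (7 at an unadjusted p under 0.05), beside 3.98% of all genes, and the median log2 fold change was 0.23. Their estimates there were positive for 14 genes and negative for 2, where 50 of the 57 interferon-stimulated genes were positive. In VAT 4 of them rose and 1 fell, beside 4.33% and 3.97% of all genes. Between tissues 7 were lower in VAT of control mice, beside 7.18%, and 8 in VAT of Fat1562 mice, beside 6.73%. Of 15 MHC class I and peptide loading genes, 0 were called for Fat1562 in Spl/LN by edgeR (3 at an unadjusted p under 0.05), beside 3.98% of all genes, and 5 fell in VAT, beside 3.97%. In Spl/LN the estimates of the class I genes were positive for 12 and negative for 3, with a median of 0.09. The interaction was called lower for 5 class I genes, where 2.02% of all genes were, and higher for 1 GBP gene, where 1.70% were.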

How the data were processed

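RNA of 1000 double-sorted cells per library was captured with an oligo(dT) primer, amplified for 18 PCR cycles without molecular identifiers and sequenced as paired reads of 38 bases, so counting intervals would cover counting error only. The authors deposited raw read counts per gene symbol for 11 libraries. The submitters' processing notes name STAR 2.5.4, featureCounts and the build mm10; the role of each, the annotation and the strand setting are not given in the sources used here.

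From the deposited counts, each gene was kept if any group averaged above 10 once libraries were brought to a common total, and edgeR 4.0.16 (R 4.3.3) was used for testing. TMM scaling, 1 fit over the 4 groups, the quasi-likelihood test and Benjamini-Hochberg adjustment over the genes tested were used, with calls at an adjusted p under 0.05 and SEs taken as the log2 fold change over the square root of F. The scripts were tested on simulated data. The text names members called in any of the 5 comparisons with their values, other members by role, and a list of pathway genes. The members and lists were chosen with earlier results of these data known. Replicate numbers in the labels name a library, and the labels do not say whether they mark a shared mouse or day. Sequence shared between genes was counted as the percent of 38-base stretches of a gene's GENCODE vM21 exons found in another gene. Alternatives were median-of-ratios factors, library totals alone, no filter, means above 50, a coefficient of variation under 0.7, only the groups compared, a replicate block, DESeq2 1.42.0 and leaving out each library. Some genes of the marker and pathway lists are counted in the totals but not reported here.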

Additional observations from a re-analysis of the deposited data

Results flagged for a closer look

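For 6 interferon-stimulated genes the effect of Fat1562 differed between VAT and Spl/LN by the interaction term of edgeR's quasi-likelihood test (6 of 57, 10.5%, beside 3.72% of all genes), and each difference was negative. On the log2 scale it was -1.55 for Lgals3bp, -1.06 for Cmpk2, -0.94 for Ifi35, -0.87 for Samd9l, -0.79 for Ddx58 and -0.52 for Lgals9. The calls within tissues differed: Lgals3bp and Ddx58 were called higher with Fat1562 in Spl/LN and not called in VAT, Samd9l, Ifi35 and Lgals9 were called lower in VAT and not called in Spl/LN, and Cmpk2 was called in neither. By estimate, all 6 genes were positive in Spl/LN and negative in VAT, so the limit for a call sets part of this grouping. The 2 VAT control libraries enter each of these differences, and VAT control 2 held B cell markers at a sum of 39101 normalized counts. Without it 9 genes were called, and without VAT control 1 the call remained for 1 gene, Lgals3bp. The part of the B cell transcripts in these differences was not tested.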

How the results depend on the processing

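No single call changed sign under an alternative. Calls that held under every alternative with a value were 3 of 13 between tissues of control mice (Isg20, Ly6a, Lgals3bp), 6 of 16 between tissues of Fat1562 mice (Stat2, Irf1, Irf9, Sp100, Cmpk2, Slfn8), 1 of 7 for Fat1562 in VAT (Samd9l), 5 of 11 in Spl/LN (Oas2, Isg20, Ube2l6, Ly6a, Lgals3bp) and 1 of 6 for the interaction (Lgals3bp). Without a filter, 18 interferon-stimulated genes were called for Fat1562 in Spl/LN (793 of all genes, where the filtered fit called 515) and 16 for the interaction. DESeq2 called 10 for the interaction, with 783 of all genes, and 793 of all genes for Fat1562 in Spl/LN. With library totals alone, the median between tissues of control mice was -0.0693, and the calls over all genes were 650 higher and 444 lower for Fat1562 in VAT, 267 and 231 in Spl/LN, and 304 and 199 for the interaction. The cause was not tested. Leaving out 1 library at a time, the calls ranged from 4 to 13 and the median from -0.0642 to 0.338 between tissues of control mice, and from 8 to 18 and from -0.371 to -0.215 between tissues of Fat1562 mice. They ranged from 2 to 7 and from -0.245 to 0.127 for Fat1562 in VAT, from 5 to 12 and from 0.255 to 0.395 in Spl/LN, and from 1 to 9 and from -0.592 to -0.267 for the interaction. Deviations from the group means, in 15 pairs of libraries with the same replicate number, had correlations over genes of -0.0395 to 0.0555. Spl/LN and VAT libraries of the same treatment could come from the same mice. Those with the same number were at 0.0373 and 0.0303 in control and 0.0555, 0.03 and 0.0299 after Fat1562. Those with different numbers were at -0.0576 to 0.0277. The labels do not say whether a number marks a shared mouse, and the main fit took the libraries as unpaired. With the replicate number as a block, 10, 15, 6, 10 and 5 interferon-stimulated genes were called in the 5 comparisons in the order above, with medians of 0.052, -0.288, -0.0753, 0.346 and -0.426, against 13, 16, 7, 11 and 6 without it. With 2 libraries in VAT control and a common biological coefficient of variation of 19.1%, small differences may go uncalled.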
